A study of Homo sapiens with 4 samples.

Results

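The 10 genes described here are APOE, APOC1, LPL, SPP1, CD9, LGALS3, FABP5, PLIN2, ITM2B and CHI3L1. With earlier results of these data known, they were chosen by name as a list of lipid-associated and disease-associated microglia genes. Their rule sets no threshold on a measured value. They are 10 of the 35584 genes to which the transcripts of the files were summed, and all 10 passed the filter on low counts, which left 15377 genes for the test. RNA came from iMGL, microglia-like cells made from induced pluripotent stem cells of WTC11, a widely used human line. The unedited cells (genotype WT) were compared with cells edited to lack SHIP1 (titled S1KO, genotype KO), a lipid phosphatase whose gene is INPP5D, with 2 libraries of each genotype. No treatment, dose or time point is given in the labels. As described, all 4 libraries share the parental line, the differentiation protocol and the poly-A library type. The design text names 2 clones per genotype, but the labels tie no clone to a replicate number. The p-values therefore measure the spread between these libraries, and the results hold for 1 parental line.

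In microglia, lipoprotein particles carrying apolipoprotein E move cholesterol and phospholipid out of the cell, lipoprotein lipase releases fatty acids from incoming particles, fatty acid binding proteins carry them in the cytosol, and perilipins coat the droplets in which they are stored. Genes of this kind are raised together with osteopontin, the tetraspanin CD9 and galectin-3 in microglia near amyloid plaques and in demyelinated tissue, a state that depends in mice on the lipid receptor TREM2. SHIP1 removes a phosphate from the membrane lipid PIP3 and thereby limits signalling through TREM2 and its adaptor TYROBP.

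Total estimated counts ran from 21516813 to 25927881 per library. Mitochondrially encoded genes took 14.2% and 18.9% of them in WT 1 and WT 2, against 52.3% and 39.2% in S1KO 1 and S1KO 2. INPP5D was lower in both S1KO libraries (81.0 and 97.6 CPM against 355.6 and 441.0 in WT; log2 fold change -2.16 ± 0.21 SE, edgeR adjusted p = 0.0183, and limma adjusted p = 0.0696 on TPM without mitochondrial genes). Of 18 markers of microglial and myeloid identity, TYROBP stood at 776.1 to 3901 TPM and C1QC at 384.9 to 2337 TPM, while TMEM119 (0.75 to 2.18 TPM) and SALL1 (listed at 0 in 3 libraries, 0.52 TPM in WT 1) were at or near 0. WT 1 also held mesenchymal transcripts: the summed level of 14 markers was 1249 TPM there and 6.31 to 13.7 TPM in the other libraries, with COL1A1 at 697 TPM. Levels below are CPM, read counts relative to the library total and scaled by TMM, a method that sets the typical gene to no change between libraries, and fold changes are S1KO against WT from edgeR's quasi-likelihood test with n = 2 per group. Where 1 library is left out, the lone sample is assumed to vary like the remaining pair, and values "against WT 1 alone" or "against WT 2 alone" rest on the spread of the S1KO pair. TPM, which also divides by transcript length, is used to compare one gene with another.

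ITM2B was the 1 of the 10 genes that changed between the genotypes at an adjusted p under 0.05: it fell by 1.28 on the log2 scale. Over all genes tested 144 passed, which is 0.936%, with 121 higher (0.787%) and 23 lower (0.15%) in S1KO. DESeq2 also called 1 of the 10, ITM2B, where it called 7.64% of all genes and 3.34% as lower. At an unadjusted p under 0.05 in edgeR, 4 of the 10 passed (LPL, LGALS3, CD9 and ITM2B) against 19.5% of all genes, and 2 of them as lower against 9.22%. Of the other members, APOE, APOC1, LPL and LGALS3 lay higher and SPP1, CD9 and CHI3L1 lower in the S1KO pair than in the WT pair, without passing the test, and FABP5 and PLIN2 overlapped between the genotypes. Both S1KO libraries above both WT libraries was seen for 4 of the 10, against 26% of all genes, and both below for 4 of the 10, against 25.8%. The 10 therefore had no common direction. Their median log2 fold change was 0.24 beside -0.015 over all genes tested, and its sign turned without WT 1 (-0.12), without S1KO 1 (-0.24) and in limma on log2(TPM + 1) (-0.67).

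**Figure D1:**
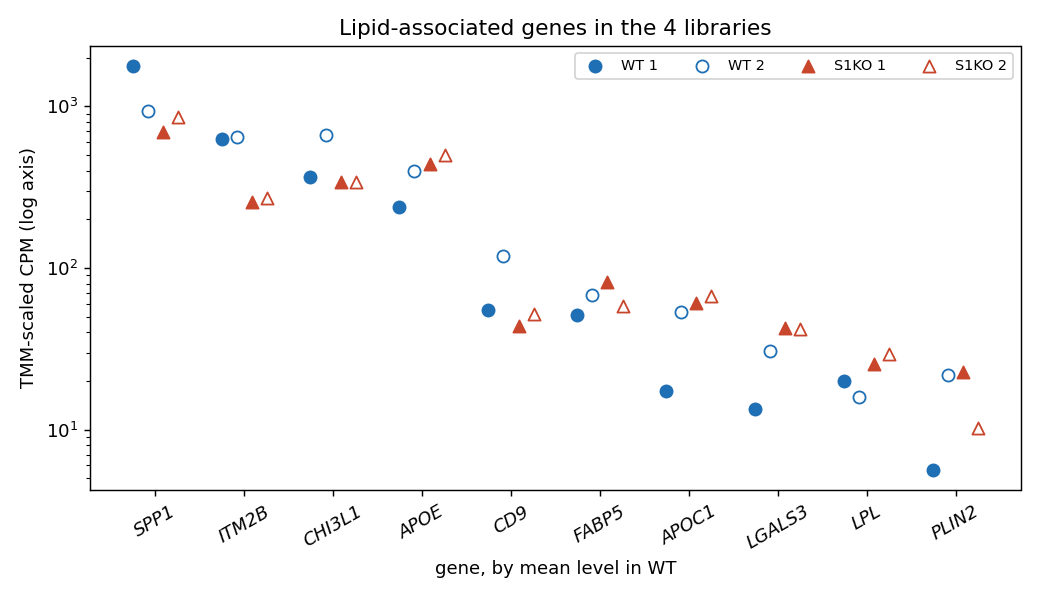
Level of each of the 10 genes in each library, as TMM-scaled CPM on a log axis, with genes ordered by their mean in WT; circles are WT and triangles S1KO, filled for replicate 1 and open for replicate 2. ITM2B shows a clear gap between the 2 genotypes, while for APOC1 and LGALS3 the value of WT 1 is the lowest, at 17.3 and 13.3 CPM.

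The members differed widely in level, and their order was similar in all 4 libraries. On the TPM scale SPP1 was the highest of the 10 in every library, at 2149 and 1028 TPM in WT and 308.9 and 621.0 TPM in S1KO. ITM2B, CHI3L1 and APOE held the next 3 places in 3 of the libraries. In S1KO 2 APOC1 took place 4 at 192 TPM and ITM2B place 5 at 185 TPM. LPL and PLIN2 were the lowest in every library, between 4.42 and 12.4 TPM for LPL and between 5.93 and 22.7 TPM for PLIN2. APOE stood at place 4 in both WT libraries and at place 2 in both S1KO libraries, and ITM2B at places 2 and 3 in WT and 4 and 5 in S1KO. By mean TPM, SPP1 lay above 99.5% of all genes tested and LPL above 54.9%.

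The difference of largest size and smallest SE among the 10 was that of ITM2B, which encodes BRI2, a type II membrane protein cut by furin-like proteases and mutated in familial British and Danish dementia. ITM2B (ENSG00000136156, chromosome 13, 48232612 to 48270357, plus strand, GRCh38) stood at 626.1 and 643.7 CPM in WT 1 and WT 2 and at 254.5 and 269.7 CPM in S1KO 1 and S1KO 2. Libraries of one genotype lay close together, 1.03-fold apart in WT and 1.06-fold in S1KO, and the genotypes did not overlap. The level in WT was 2.42-fold that in S1KO (log2 fold change -1.28 ± 0.18 SE, 95% interval -1.72 to -0.84, edgeR adjusted p = 0.0447). Of all genes tested, 4.48% had a fold change at or below that of ITM2B. Against WT 1 alone the log2 fold change was -1.26 and against WT 2 alone -1.30. The call was lost without S1KO 1 (edgeR adjusted p = 0.497), without S1KO 2 (0.311), with the replicate number as a block (0.0803), with protein-coding transcripts only (0.109) and in limma on TPM rescaled without mitochondrial genes (0.0774), while the log2 fold change stayed between -2.28 and -1.25 over all 17 alternatives.

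The lower level of ITM2B was seen in its 2 main transcripts. ITM2B-209, the leading protein-coding transcript, had 328.9 and 411.5 CPM in WT and 133.2 and 162.2 CPM in S1KO. ITM2B-210, annotated as a target of nonsense-mediated decay, had 166.9 and 163.8 CPM in WT and 68.0 and 80.2 CPM in S1KO. Its share of the counts of ITM2B was near constant, at 26.6% and 25.4% in WT and 26.7% and 29.7% in S1KO. ITM2B-208, a processed transcript, behaved otherwise: it held 10.5% of ITM2B counts in WT 1, 1.29% in WT 2, 5.80% in S1KO 1 and none in S1KO 2.

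The family and the processing enzymes of BRI2 were examined next. Here and in the lists of related genes below, the genes named are among the 3 of smallest p in the same fit. Each had a mean TPM of at least 5. Beside the counts of these lists, 0.936% of all genes passed in edgeR and 7.64% with DESeq2. At an unadjusted p under 0.05 in edgeR the share was 19.5%. Of the 9 genes of the BRI2 list tested, 7 were negative and 2 positive (median log2 fold change -0.43). None passed in edgeR (5 at an unadjusted p under 0.05 in edgeR, and 4 with DESeq2). ITM2C, the paralog BRI3, measured 118.4 and 72.1 CPM in WT, and 38.1 and 39.2 CPM in the S1KO libraries (log2 fold change -1.30 ± 0.26 SE, edgeR adjusted p = 0.0827). ADAM10, the sheddase that releases the BRICHOS domain of BRI2, had a log2 fold change of -0.64 ± 0.16 SE (edgeR adjusted p = 0.119). PCSK5, a furin-like convertase, lay the other way, at 6.90 and 12.6 CPM in WT and 31.4 and 24.2 CPM in S1KO (1.51 ± 0.33 SE, edgeR adjusted p = 0.0943).

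Among the secreted and surface members that lay lower in S1KO, the size of the difference depended on which WT library served as reference. SPP1 encodes osteopontin, a secreted phosphoprotein that binds integrins and CD44. SPP1 (ENSG00000118785, chromosome 4, 87975650 to 87983426, plus strand) stood at 1775 CPM in WT 1, 940.5 in WT 2, 690.5 in S1KO 1 and 863.3 in S1KO 2. WT 2 was nearer to S1KO 2 than to WT 1. Its log2 fold change was -0.81 ± 0.34 SE (95% interval -1.63 to 0.015, edgeR adjusted p = 0.265). Against WT 1 alone it was -1.19 (adjusted p = 0.00346) and against WT 2 alone -0.28 (adjusted p = 0.61). WT 1, the library in which SPP1 was highest, is the library that held mesenchymal transcripts, and their part in this value was not tested.

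The transcripts of SPP1 differ by a pair of coding exons, shown here because they separate the 3 main forms of the message. In GENCODE 29, SPP1-203 holds both exons, SPP1-202 lacks the first of them (81 bases, chr4:87980046-87980126) and SPP1-201 lacks the second (42 bases, chr4:87980393-87980434). Each exon is given in capitals, with 10 bases of the neighbouring exons of SPP1-203 on either side in lower case, on the plus strand of GRCh38; the deposited SPP1-203 is a later version of this transcript, 1561 bases long against 1473.
SPP1 exon 4: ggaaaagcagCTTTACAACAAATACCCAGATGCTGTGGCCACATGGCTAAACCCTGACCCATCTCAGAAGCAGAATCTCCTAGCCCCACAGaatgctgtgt
SPP1 exon 5: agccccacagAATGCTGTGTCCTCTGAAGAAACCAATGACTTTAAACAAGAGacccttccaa

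The form with both exons led in every library. Of the counts of these 3 transcripts, SPP1-203 held 74.9% and 82.4% in WT and 72.3% and 73.5% in S1KO. SPP1-201, without exon 5, held 21.6% and 14.8% in WT and 25.6% and 24.0% in S1KO, an excess over WT 1 smaller than the gap between WT 1 and WT 2. SPP1-202, without exon 4, held 3.53% and 2.79% in WT and 2.15% and 2.53% in S1KO. No test was run on these shares.

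**Figure D2:**
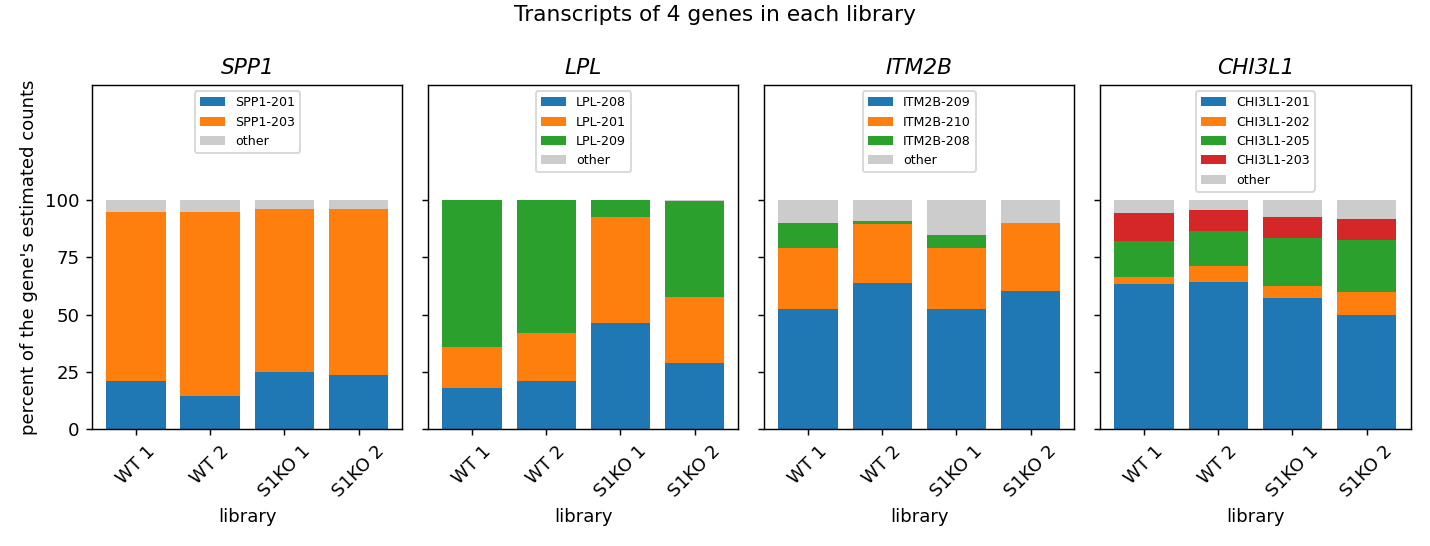
Share of the estimated counts of SPP1, LPL, ITM2B and CHI3L1 held by each transcript (bars, percent) in each library, for the transcripts that reached 10% in any library, with the rest in grey. The nonsense-mediated decay transcript LPL-209 held 7.45% in S1KO 1 and between 42.0% and 64.2% in the other libraries, while the 2 main transcripts of SPP1 kept their order throughout.

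Of the 11 tested receptors and partners of osteopontin, 8 were negative (median log2 fold change -0.55, and -0.067 without WT 1). In edgeR 1 fell and 1 rose. At an unadjusted p under 0.05 in edgeR 7 passed, and DESeq2 called 1 higher and 4 lower. ITGA4, the integrin alpha 4 chain, fell from 65.1 and 67.2 CPM to 24.1 and 27.0 CPM (log2 fold change -1.37 ± 0.17 SE, edgeR adjusted p = 0.038). MMP9, a protease that cleaves osteopontin, rose from 51.1 and 44.5 CPM to 270.9 and 155.2 CPM (2.16 ± 0.29 SE, edgeR adjusted p = 0.0405). With protein-coding transcripts only, both calls were lost (edgeR adjusted p = 0.0818 for each); that of ITGA4 was also lost in limma on TPM without mitochondrial genes (0.0657) and that of MMP9 in limma on log2(TPM + 0.1) (0.188). ITGB1, the shared beta 1 chain, lay lower in both S1KO libraries without passing (-0.98 ± 0.16 SE, edgeR adjusted p = 0.0595). MMP9 also belongs to a list of 7 osteoclast markers, 5 of them tested, all with a positive fold change. For 3 of these 5 both S1KO libraries lay above both WT libraries, against 26% of all genes tested. The summed level of that list was 72.2 and 87.8 CPM in WT and 361.0 and 221.1 CPM in S1KO, most of it MMP9 itself, and its part in the values of SPP1 was not tested. The other osteoclast markers that rose, named after their values were seen, were ATP6V0D2 (log2 fold change 3.93, edgeR adjusted p = 0.0172) and DCSTAMP (3.12, edgeR adjusted p = 0.0456). Both were low in WT, ATP6V0D2 at 1.75 and 1.76 CPM and DCSTAMP at 0.54 and 0.73 CPM. In S1KO they stood at 32.7 and 21.1 CPM and at 6.54 and 4.61 CPM. Their calls were not tried over the alternatives. No other gene of the list passed the threshold, though every tested one had a positive fold change on the TMM scale. On the TPM scale, where the median of all genes was lower in S1KO, CTSK stood at 10.4 and 13.3 in WT and 4.67 and 9.15 in S1KO. ACP5 stood at 12.1 and 38.6 TPM in WT and 19.2 and 22.6 TPM in S1KO. OCSTAMP and CALCR were at most 0.21 TPM in any library.

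CD9 encodes a tetraspanin, a membrane organiser that pairs with integrins and is abundant on exosomes. CD9 (ENSG00000010278, chromosome 12, 6199715 to 6238271, plus strand) stood at 54.6 CPM in WT 1, 118.3 in WT 2, 43.8 in S1KO 1 and 51.9 in S1KO 2. WT 1 lay just above S1KO 2, and WT 2 lay 2.17-fold above WT 1. Of all genes tested, 8.75% had a fold change at or below that of CD9. Between genotypes the log2 fold change was -0.85 ± 0.35 SE (95% interval -1.70 to -0.0014, edgeR adjusted p = 0.256). It was -0.19 against WT 1 alone (adjusted p = 0.676) and -1.30 against WT 2 alone (adjusted p = 2.01e-07).

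Of 15 other tetraspanins and CD9 partners tested, 13 were negative (median log2 fold change -0.72). For 11 the S1KO pair lay wholly below the WT pair, against 25.8% of all genes tested. None reached an adjusted p under 0.05 in edgeR (10 at an unadjusted p under 0.05, and 9 with DESeq2, all of them lower). CD53, a leukocyte tetraspanin, measured 240.2 and 211.7 CPM in WT, and 126.0 and 119.1 CPM in the S1KO libraries (log2 fold change -0.88 ± 0.17 SE, edgeR adjusted p = 0.0764). TSPAN3 was at -0.84 ± 0.19 SE (edgeR adjusted p = 0.0956).

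CHI3L1 encodes YKL-40, a secreted chitinase-like protein without enzyme activity that is measured in cerebrospinal fluid as a marker of glial inflammation. CHI3L1 (ENSG00000133048, chromosome 1, 203178931 to 203186749, minus strand) stood at 365.5 CPM in WT 1, 669.1 in WT 2, 342.6 in S1KO 1 and 339.7 in S1KO 2. The S1KO libraries were 1.01-fold apart and WT 1 lay close to them, and WT 2 stood apart from the other 3. The log2 fold change was -0.60 ± 0.30 SE (95% interval -1.32 to 0.12, edgeR adjusted p = 0.336), with -0.099 against WT 1 alone (adjusted p = 0.878) and -0.97 against WT 2 alone (adjusted p = 0.00276). Its transcripts did not keep their shares: CHI3L1-201, the main protein-coding form, held 63.4% and 64.1% of CHI3L1 counts in WT and 57.4% and 49.9% in S1KO. Transcripts of CHI3L1 with a retained intron held 33.5% and 28.7% in WT and 37.4% and 40.0% in S1KO. Taken over every protein-coding gene, retained introns held 8.88% and 9.62% in WT and 3.52% and 6.32% in S1KO, the opposite order. That total included the mitochondrially encoded genes, which took 14.2% and 18.9% of all counts in WT and 52.3% and 39.2% in S1KO. Their part in this order was not tested. Its relatives and partners showed no shared direction: of 6 tested, 3 were positive and 3 negative, with a median of 0.006, and none passed (2 at an unadjusted p under 0.05, and 1 with DESeq2). The chitinase CHIT1 was at 3.04 and 5.30 CPM in WT and 12.5 and 7.004 CPM in S1KO (1.22 ± 0.43 SE, edgeR adjusted p = 0.202), the receptor gene AGER was at 0.70 ± 0.17 SE (0.103) and TMEM219 at 0.24 ± 0.15 SE (0.44).

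The apolipoprotein genes APOE and APOC1 and the lipase gene LPL lay higher in S1KO on the TMM scale, none of them past the threshold. APOE and APOC1 are neighbours on chromosome 19, on the same strand and 4853 bases apart, and encode apolipoproteins of the particles that microglia secrete. APOE (ENSG00000130203, 44905754 to 44909393) stood at 236.9 CPM in WT 1, 399.7 in WT 2, 438.2 in S1KO 1 and 499.4 in S1KO 2. WT 1 was the low library, and WT 2 lay nearer to S1KO 1 than to WT 1. Its log2 fold change was 0.56 ± 0.28 SE (95% interval -0.11 to 1.23, edgeR adjusted p = 0.334), with 0.98 against WT 1 alone (adjusted p = 0.00632) and 0.23 against WT 2 alone (adjusted p = 0.644). On log2(TPM + 1), which counts the mitochondrial transcripts in its total, it turned to -0.38 (limma adjusted p = 0.478), where the median of all genes was -0.78.

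APOC1 encodes apolipoprotein C1, a small protein that inhibits lipoprotein lipase. APOC1 (ENSG00000130208, 44914247 to 44919349) stood at 17.3 CPM in WT 1, 53.4 in WT 2, 60.8 in S1KO 1 and 66.8 in S1KO 2. WT 1 again stood alone, 3.09-fold below WT 2, and the other 3 libraries lay together. Between genotypes the log2 fold change was 0.85 ± 0.47 SE (95% interval -0.29 to 1.99, edgeR adjusted p = 0.38), with 1.89 against WT 1 alone (adjusted p = 3.1e-09) and 0.26 against WT 2 alone (adjusted p = 0.508). The ratio of APOE to APOC1 on the TPM scale was 4.46 in WT 1 and 2.67, 2.50 and 2.56 in WT 2, S1KO 1 and S1KO 2. The neighbours thus kept a similar ratio in 3 libraries and not in WT 1.

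Of 20 other genes of lipoprotein handling and sterol efflux tested, 14 were negative and 6 positive (median log2 fold change -0.30), and none passed in edgeR (6 at an unadjusted p under 0.05, and 4 with DESeq2). NR1H3, the sterol-activated nuclear receptor LXR-alpha that induces APOE and APOC1, measured 5.15 and 10.9 CPM in WT, and 32.9 and 27.8 CPM in the S1KO libraries (log2 fold change 1.91 ± 0.37 SE, edgeR adjusted p = 0.0796). ABCA7, a lipid transporter, stood at 340.4 and 393.0 CPM against 561.1 and 635.4 CPM (0.71 ± 0.20 SE, edgeR adjusted p = 0.137). Its value turned to -0.042 on log2(TPM + 1), where the median of all genes was -0.78. LRP1, a receptor that takes up APOE particles, stood at 245.9 and 236.1 CPM against 141.3 and 159.9 CPM (-0.68 ± 0.17 SE, edgeR adjusted p = 0.108).

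LPL encodes lipoprotein lipase, which frees fatty acids from triglyceride-rich particles. LPL (ENSG00000175445, chromosome 8, 19901717 to 19967259, plus strand) measured 20.0 and 16.0 CPM in WT, and 25.3 and 29.2 CPM in the S1KO libraries. The groups did not overlap, and the libraries lay 1.25-fold apart in WT and 1.15-fold in S1KO. The log2 fold change was 0.60 ± 0.21 SE (95% interval 0.10 to 1.10, edgeR adjusted p = 0.2), with 0.45 against WT 1 alone (adjusted p = 0.281) and 0.77 against WT 2 alone (adjusted p = 0.031). The value moved with the transcripts counted. LPL-209, annotated as a nonsense-mediated decay target, held 64.2% and 58.0% of LPL counts in WT and 7.45% and 42.0% in S1KO. LPL-201 and LPL-208 had the same deposited length and equal counts, and each measured 3.58 and 3.36 CPM in WT, and 11.7 and 8.42 CPM in the S1KO libraries. With protein-coding transcripts only, the log2 fold change of LPL was 1.53 (edgeR adjusted p = 0.109). On log2(TPM + 1) over all transcripts it was -0.54 (limma adjusted p = 0.317), where the median of all genes was -0.78.

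Of 15 partners of LPL and genes of fatty acid uptake tested, 8 were positive and 7 negative, with a median of 0.008, and none passed in edgeR (5 at an unadjusted p under 0.05, and 2 with DESeq2). FABP3, a fatty acid binding protein, measured 4.11 and 2.84 CPM in WT, and 13.5 and 8.51 CPM in the S1KO libraries (log2 fold change 1.66 ± 0.37 SE, edgeR adjusted p = 0.0951). SLC27A4, a fatty acid transporter, was at -0.51 ± 0.18 SE (edgeR adjusted p = 0.199), and PPARA, a fatty acid-activated nuclear receptor, at 0.69 ± 0.25 SE (edgeR adjusted p = 0.217).

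LGALS3 encodes galectin-3, a sugar-binding lectin that marks damaged lysosomes and is a ligand of TREM2. LGALS3 (ENSG00000131981, chromosome 14, 55124110 to 55145413, plus strand) stood at 13.3 CPM in WT 1, 30.8 in WT 2, 42.5 in S1KO 1 and 41.6 in S1KO 2. The S1KO libraries lay 1.02-fold apart, and the WT libraries lay 2.31-fold apart. Its log2 fold change was 0.93 ± 0.37 SE (95% interval 0.029 to 1.83, edgeR adjusted p = 0.246), the highest of the 10, with 1.66 against WT 1 alone (adjusted p = 4.99e-07) and 0.45 against WT 2 alone (adjusted p = 0.222). The retained-intron transcript LGALS3-207 held 12.8% and 18.4% of LGALS3 counts in WT and 7.37% and 8.94% in S1KO. Of 10 other galectins and LGALS3 partners tested, 6 were negative and 4 positive, with a median of -0.22, and none passed in edgeR (3 at an unadjusted p under 0.05, and 1 with DESeq2). LGALS3BP, a secreted galectin-3 ligand, measured 15.4 and 23.8 CPM in WT, and 8.02 and 6.72 CPM in the S1KO libraries (-1.41 ± 0.29 SE, edgeR adjusted p = 0.0856), the other way from LGALS3. LGALS12 was at -0.86 ± 0.31 SE (0.209) and the lysosomal membrane protein LAMP1 at -0.47 ± 0.17 SE (0.203).

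The cytosolic lipid carriers did not separate the genotypes. FABP5, an epidermal-type fatty acid binding protein (ENSG00000164687, chromosome 8, 81280363 to 81284777, plus strand), measured 51.2 and 68.3 CPM in WT, and 82.0 and 58.4 CPM in the S1KO libraries. S1KO 2 lay between the WT libraries. Between genotypes the log2 fold change was 0.23 ± 0.24 SE (95% interval -0.34 to 0.80, edgeR adjusted p = 0.634), and adding the counts of its processed pseudogenes left it at 0.24. PLIN2, a perilipin that coats lipid droplets (ENSG00000147872, chromosome 9, 19108375 to 19149290, minus strand), measured 5.65 and 21.7 CPM in WT, and 22.6 and 10.2 CPM in the S1KO libraries. Its libraries were 3.84-fold apart in WT and 2.22-fold in S1KO, the widest spread of the 10 in both groups, so the interval of its log2 fold change ran from -1.29 to 1.81 (0.26 ± 0.64 SE, edgeR adjusted p = 0.859). The value was 1.53 against WT 1 alone (adjusted p = 0.000462) and -0.41 against WT 2 alone (adjusted p = 0.354).

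Of 22 other lipid droplet genes tested, 13 were positive and 9 negative, with a median of 0.11, and 1 rose in edgeR. At an unadjusted p under 0.05 in edgeR 4 passed, against 19.5% of all genes. DESeq2 called 1 higher and 1 lower, against 7.64% of all genes in either direction. HILPDA, an inhibitor of the droplet lipase ATGL, rose from 9.36 and 7.89 CPM to 40.1 and 47.0 CPM (log2 fold change 2.34 ± 0.21 SE, edgeR adjusted p = 0.0172). With protein-coding transcripts only, the log2 fold change of HILPDA was 0.60 and the call was lost (edgeR adjusted p = 0.622). On log2(TPM + 1) its difference was 1.58 (limma adjusted p = 0.016), and on log2(TPM + 0.1) it was 1.64 (0.0809). ACSL3, which activates fatty acids at nascent droplets, measured 41.6 and 41.1 CPM in WT, and 17.9 and 25.1 CPM in the S1KO libraries (-0.94 ± 0.22 SE, edgeR adjusted p = 0.0987). BSCL2, which encodes seipin, was at -0.89 ± 0.25 SE (edgeR adjusted p = 0.136).

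**Figure D3:**
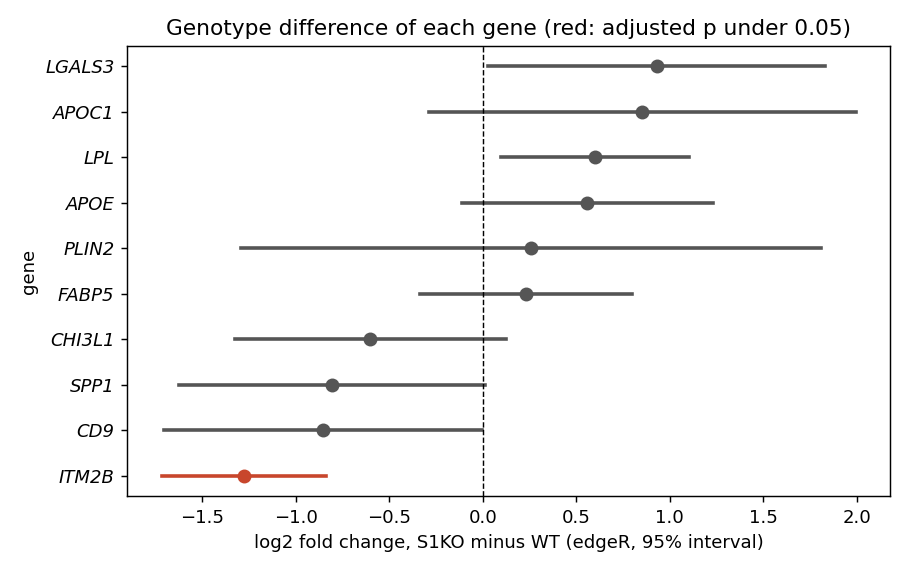
Log2 fold change of each gene, S1KO minus WT, as points with the 95% interval of edgeR's quasi-likelihood fit as lines; the dashed line marks no change. The interval of ITM2B, in red, runs from -1.72 to -0.84, and that of PLIN2 from -1.29 to 1.81.

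The WT libraries lay apart for most of these genes. Between WT 1 and WT 2, 9 of the 10 lay further apart than the median gene, for which the gap was 1.24-fold. Of the 10, 8 were higher in WT 2, all but LPL and SPP1, and the share of all genes in that direction was not computed. WT 1 is the library that held mesenchymal transcripts (1249 TPM summed over 14 markers), and their part in these gaps was not tested. Between the S1KO libraries, 3 of the 10 lay further apart than the median gene at 1.20-fold. APOC1, CD9, LGALS3 and PLIN2 lay over 2-fold apart in WT, against 12.8% of all genes tested. Against WT 1 alone 6 members passed the threshold and against WT 2 alone 4, and ITM2B was the 1 gene that passed against both. Leaving out either WT library raised the number of calls over all genes to 2070 (without WT 1) and 2041 (without WT 2), and leaving out either S1KO library gave 0 calls in edgeR among the members and over all genes (1366 genes at an unadjusted p under 0.05 without S1KO 1, 1846 without S1KO 2, and 1 member in each).

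**Figure D4:**
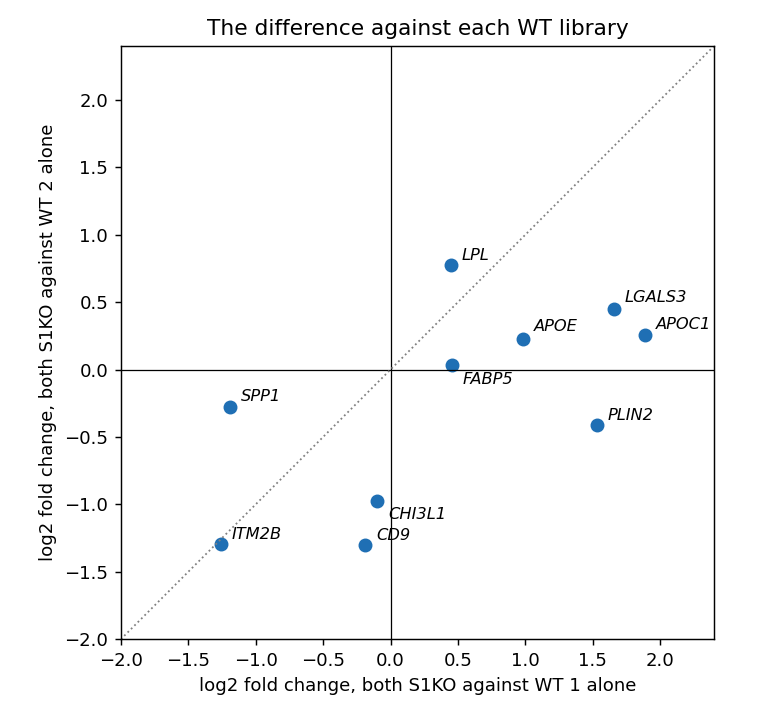
Log2 fold change of both S1KO libraries against WT 1 alone (horizontal) and against WT 2 alone (vertical), 1 point per gene, with equal values on the dotted line. ITM2B lies on the line at -1.26 and -1.30, while CD9 (-0.19 and -1.30) and APOC1 (1.89 and 0.26) lie far from it.

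Other genes of the disease-associated state also lay on both sides of zero change. Of 31 tested, 18 were negative and 13 positive (median log2 fold change -0.17), and 1 rose in edgeR. At an unadjusted p under 0.05 in edgeR 10 passed, and DESeq2 called 3 higher and 6 lower. GPNMB, a lysosomal glycoprotein of lipid-laden macrophages, rose from 9.51 and 12.04 CPM to 64.8 and 45.1 CPM (log2 fold change 2.35 ± 0.25 SE, edgeR adjusted p = 0.023). The call was lost in limma on log2(TPM + 1) (1.05, adjusted p = 0.0526) and on log2(TPM + 0.1) (1.14, 0.187). In these limma settings the median of all genes was -0.78 and -0.97. TREM2 measured 233.9 and 304.0 CPM in WT, and 101.3 and 131.5 CPM in the S1KO libraries (-1.21 ± 0.22 SE, edgeR adjusted p = 0.069). Of 15 homeostatic microglia genes tested, 10 were negative (median log2 fold change -0.68), all of them with the S1KO pair wholly below the WT pair. Over all genes tested that order was seen for 25.8%. At an unadjusted p under 0.05 in edgeR 8 passed, and DESeq2 called 6, all of them lower. P2RY12, an ADP receptor, fell in edgeR (log2 fold change -1.45 ± 0.22 SE, edgeR adjusted p = 0.0482). The call of P2RY12 was lost with the effective length as offset (edgeR adjusted p = 0.0532), with protein-coding transcripts only (0.0978) and in limma on TPM without mitochondrial genes (0.09). P2RY13 was at -0.85 ± 0.20 SE (edgeR adjusted p = 0.101) and TGFBR1 at -0.68 ± 0.16 SE (0.106). The summed level of the 18 identity markers was 5982 and 5864 CPM in WT and 3815 and 4010 CPM in S1KO. That of the 10 members was 3166 and 2962 CPM in WT and 2003 and 2230 CPM in S1KO. A large part of it was SPP1 (1775 and 940.5 CPM in WT, 690.5 and 863.3 in S1KO) and ITM2B (626.1 and 643.7, 254.5 and 269.7). Of the 10 members, 6 had a positive and 4 a negative fold change. The mitochondrial share was the higher in both S1KO libraries. In bulk RNA, fewer cells of a type and less RNA of its marker genes per cell cannot be told apart.

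Markers of other cell types were also summed. Summed TPM was 9.70 to 28.1 for 8 astrocyte markers, with AQP4 at 0 in every library, 2.33 to 11.8 for 7 neuronal markers, 7.41 to 12.5 for 7 pluripotency markers and 3.35 to 6.75 for 9 erythroid and megakaryocyte markers. The astrocyte sum was the highest in WT 1, where SLC1A3 stood at 17.8 TPM. GFAP and ALDH1L1 were higher in WT 2 (6.90 and 5.70 TPM) than in WT 1 (4.66 and 2.21 TPM). APOE was the lowest in WT 1 on the CPM scale. On the TPM scale APOE was the lowest in S1KO 1 (263.8 TPM), where the astrocyte sum was also the lowest (9.70 TPM). On that scale the median of all genes was lower in S1KO. In CPM the astrocyte sum was 43.4 in WT 1, 20.0 in WT 2, 30.9 in S1KO 1 and 35.1 in S1KO 2. The 10 monocyte and granulocyte markers summed to 148.4 and 126.2 CPM in WT and 120.1 and 107.7 CPM in S1KO, and on the TPM scale, where the median of all genes was lower in S1KO, to 611.6 and 440.6 in WT and 187.1 and 262.2 in S1KO. Of the 8 tested, 5 were negative and 3 positive (median log2 fold change -0.44). S100A8 and S100A9 held most of the TPM sum in every library, and S100A9 stood at 361.0 TPM in WT 1. The 1 that rose was FCN1 (log2 fold change 2.80, edgeR adjusted p = 0.0405), listed at 0.20 to 0.97 TPM and named after its value was seen. Their part in the values of the 10 genes was not tested.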

How the data were processed

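RNA was measured in iMGL of 2 genotypes, 2 libraries each. Per the labels' protocols, libraries used poly-A selection and paired-end sequencing; per the submitters' processing notes, kallisto and hg38 were used (version and transcript set not given in the sources used here). Per the file headers, the deposited values are the estimated count and the TPM of each transcript with its effective length, an other unit in bases. Transcripts were summed to symbols with GENCODE 29: 169797 matched by identifier, 15521 by symbol and 3435 (at most 0.643% of counts) had no name and were left out. Sums were rounded, filtered with filterByExpr (15377 genes kept), scaled by TMM (factors 0.654 to 1.31) and tested with edgeR 4.0.16 in R 4.3.3 (quasi-likelihood, genotype only, Benjamini-Hochberg over all genes, two-sided, threshold 0.05). Intervals at 95% use the SE implied by the statistic. Alternatives used DESeq2 1.42.0 and limma 3.58.1. The pipeline was tested on simulated data. The 10 members and 18 lists were chosen with earlier results of these data known. Named are the members, INPP5D, 3 genes of smallest p per pathway list with mean TPM of at least 5, and transcripts holding at least 10% of a member's counts; with 4 libraries, genes were not ranked by likeness of pattern.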

Additional observations from a re-analysis of the deposited data

How the results depend on the processing

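Of 170 values of the 10 genes over 17 alternatives, 159 kept their sign, 12 newly passed the threshold and 5, all of ITM2B, no longer did. The number of the 10 called was 1 as reported, 2 with no filter, 4 in limma on log2(TPM + 1), and 0 with the replicate block, with protein-coding transcripts only and in limma on TPM without mitochondrial genes; leaving out 1 library gave 0 to 6. Over all genes 144 were called, against 1152 with DESeq2 (649 higher, 503 lower), 1361 with no filter (585 higher, 776 lower), 223 with the stricter filter, 0 with the replicate block (edgeR, 2892 at an unadjusted p under 0.05, 6 of them members), 4038 in limma on log2(TPM + 1) (142 higher, 3896 lower), 1120 on log2(TPM + 0.1) and 21 with protein-coding transcripts only; leaving out 1 library gave 0 to 2070. Adding the replicate block left fewer residual degrees of freedom; otherwise the cause was not tested. The median of the 10 genes ran from -0.69 to 0.45 over 16 alternatives. The medians of all 10 pathway lists moved with that of all genes in limma on log2(TPM + 1) and log2(TPM + 0.1), and that of the SPP1 partners also without WT 1 (-0.067). In the same limma settings that of the lipid droplet genes was as low as -0.88 and that of the lipoprotein genes lay between -0.86 and 0.083 over all alternatives. Same-numbered libraries did not deviate together (correlation 0.0233 over genes). With 2 libraries per group, this cannot show whether the replicate numbers pair libraries. Signs turned for APOE (-0.38 in limma with either pseudocount), LPL (-0.54 and -0.61), FABP5 (-0.77 with either, and -0.044 to 0.45 when 1 library was left out, negative without S1KO 1) and PLIN2 (-0.57 and -0.60, and -0.43 to 1.53 when 1 library was left out, -0.43 without S1KO 1 and -0.41 without WT 1), and for ABCA7 (-0.042 and -0.043), AGER (-0.24 and -0.25), CHIT1 (-0.39 and -0.45) and TMEM219 (-0.70 and -0.71) in limma, where the median of all genes was -0.78 and -0.97. The lowest counts of a member, 158 for PLIN2 in WT 1, and 2 libraries per group limit the precision.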
